A study of Homo sapiens with 24 samples.

Results

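The transcriptomes of 2 human acute myeloid leukaemia (AML) cell lines, ELF-153 and UCSD-AML1, were compared as they stood without drug at the later of the study's harvests, 144 h. The members were the 6 untreated libraries of that harvest, 3 of ELF-153 and 3 of UCSD-AML1, out of 24 libraries in the whole series. The other libraries were untreated cells harvested at 96 h and cells of both lines given decitabine (DAC), a DNA methyltransferase inhibitor, at either harvest. Both untreated groups carried the label untreated and no genetic modification was given for either; each group is 1 established line, so a difference between them is one between these lines and not between classes of leukaemia. Both were grown in RPMI medium with 20% fetal calf serum, penicillin and streptomycin and 5 ng/ml human granulocyte-macrophage colony-stimulating factor (GM-CSF), so every library came from cells under a myeloid cytokine, and medium was changed daily. Total RNA was depleted of ribosomal RNA before stranded sequencing. The triplicates were described as technical, so the spread between libraries and every p-value below may hold no variation between separate cultures.

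AML lines are arrested at some stage of blood cell formation and keep parts of the programme of that stage. GATA factors, TAL1, FLI1 and KLF1 direct the megakaryocyte and red cell branches, CEBPA and SPI1 the granulocyte and monocyte branches, and HOXA genes, MEIS1 and MECOM (EVI1) are used by stem and progenitor cells. UCSD-AML1 is known as a line with high EVI1 expression. Interferon-stimulated genes answer type I interferon through a complex that holds STAT2 and IRF9, inflammatory genes answer NF-kB, and CDKN1A, MDM2 and their like answer p53.

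Most megakaryocyte, interferon-stimulated, NF-kB and p53 target genes were lower in ELF-153 than in UCSD-AML1, and most tested HLA class II, cholesterol synthesis and DNA replication genes were higher. MECOM was read once in the 3 ELF-153 libraries together and at 3187 or more scaled reads in each UCSD-AML1 library. Of 52 interferon-stimulated genes, 50 were tested, and 48 were lower in ELF-153 and 0 higher. Of 17180 genes tested, 4934 (28.7%) were higher in ELF-153 and 3969 (23.1%) lower, 51.8% in all, by limma on log2(scaled reads + 1) with Benjamini-Hochberg adjusted p below 0.05. These shares are the background against which each gene list below is to be read. The 3 libraries of one line lay wholly above or below those of the other for 53.4% of genes tested. Differences of 2-fold or more were reached by 3697 of the higher and 3254 of the lower genes, and of 8-fold or more by 782 and 834. The median log2 difference over all genes was 0.08. A scaled read is a read divided by its library's size factor, and a gene's value is the sum over its transcripts. Levels are compared between lines, not between genes. How reads that fit several transcripts were counted is not given, so a sum may miss reads of a gene. A line difference may then partly be one in the transcripts used, which was not tested beyond a fit over protein-coding transcripts alone. Of 186 named genes in that fit, 177 kept the call, or lack of one, of the sum. CD33 (1.29), PBX3 (0.46), SREBF2 (0.37), FADS2 (0.54), CBFA2T3 (1.07) and ARHGAP6 (0.99) were not called there. CD34 (0.86) and PTPRC (-1.29), not called as sums, were called there. IRF9, lower as a sum, had a difference of 0.8 over protein-coding transcripts alone and was not called there. Averages are means ± SD over the 3 libraries of a line.

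Reads assigned to transcripts numbered 25.54, 15.79 and 16.42 M in the ELF-153 libraries and 22.71, 21.42 and 15.1 M in the UCSD-AML1 libraries. Mitochondrial ribosomal RNA took 38.2, 16.56 and 18.1% of reads in ELF-153 and 51.58, 52.13 and 44.51% in UCSD-AML1 (exact two-sided permutation p = 0.1, the smallest that 3 against 3 allow). In untreated cells at 96 h it took 13.1, 34.96 and 27.42% in ELF-153 and 49.59, 49.33 and 51.28% in UCSD-AML1. Whether the difference came from the depletion or from the lines cannot be told apart. ELF-153 replicate 1 and UCSD-AML1 replicate 3 stood apart from the other libraries of their line in the share of mitochondrial ribosomal RNA at 144 h. Among protein-coding genes the median log2 difference went with GC content, with -0.56 in the lowest of 5 equal GC bins and 0.67 in the highest. After each library's GC trend was taken out these were 0.12 and 0.26, and 5205 genes were higher and 3796 lower. With the mitochondrial ribosomal RNA share as a covariate, 3509 genes were higher and 2238 lower. That share did not overlap between the untreated lines, so the covariate may also take out part of the line difference itself. Where that covariate, or leaving out 1 or both of the libraries that stood apart, changes a list's count by over 1.5 times or ends the call of a gene given in full, this is said beside the result.

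Markers of blood and myeloid cells were found in both lines. SPN, the sialophorin of white blood cells, had 4763, 5073 and 4964 scaled reads in the ELF-153 libraries, against 3415, 3435 and 4294 in the UCSD-AML1 libraries. The SPN call (log2 difference 0.42, limma adjusted p = 0.0184) was lost with the ribosomal RNA covariate (0.28) and with the GC trend removed (0.13). It was also lost under edgeR and DESeq2, and without ELF-153 replicate 2 or 3 or UCSD-AML1 replicate 1 or 2. CD33, a myeloid surface receptor, had 522, 497 and 430 scaled reads in the ELF-153 libraries, against 190, 225 and 212 in the UCSD-AML1 libraries (log2 difference 1.20 ± 0.19 (SE), limma adjusted p = 0.000182). Both genes were read in every library of both lines, and CD33 was not called over protein-coding transcripts alone (1.29, limma adjusted p = 0.0669). PTPRC, the leukocyte common antigen CD45, averaged 180 ± 16.2 scaled reads in ELF-153 against 251 ± 55.6 in UCSD-AML1. SPI1, a myeloid transcription factor, averaged 257 ± 59.5 in ELF-153 against 184 ± 8.95 in UCSD-AML1. Neither passed the test, though SPI1 passed as higher without ELF-153 replicate 1 (0.66) and PTPRC as lower without UCSD-AML1 replicate 3 (-0.65). PTPRC was also called lower by DESeq2 (-0.56), edgeR with RLE factors (-0.56) and limma-voom (-0.49), though not by edgeR with TMM factors. It was called lower too with a replicate block (-0.46) and over protein-coding transcripts alone (-1.29). B, T and fibroblast, endothelial and epithelial markers were present in part: MS4A1 and EPCAM had 0 reads in all 6 libraries, while PAX5, CD3D and CDH5, described below, were not at 0. The granulocyte enzyme ELANE was at 0 in all libraries, and MPO was at 0 in ELF-153 and at 0.884, 0.959 and 0 in UCSD-AML1. In bulk RNA, fewer cells that express a gene and less of its RNA per cell cannot be told apart.

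**Figure D1:**
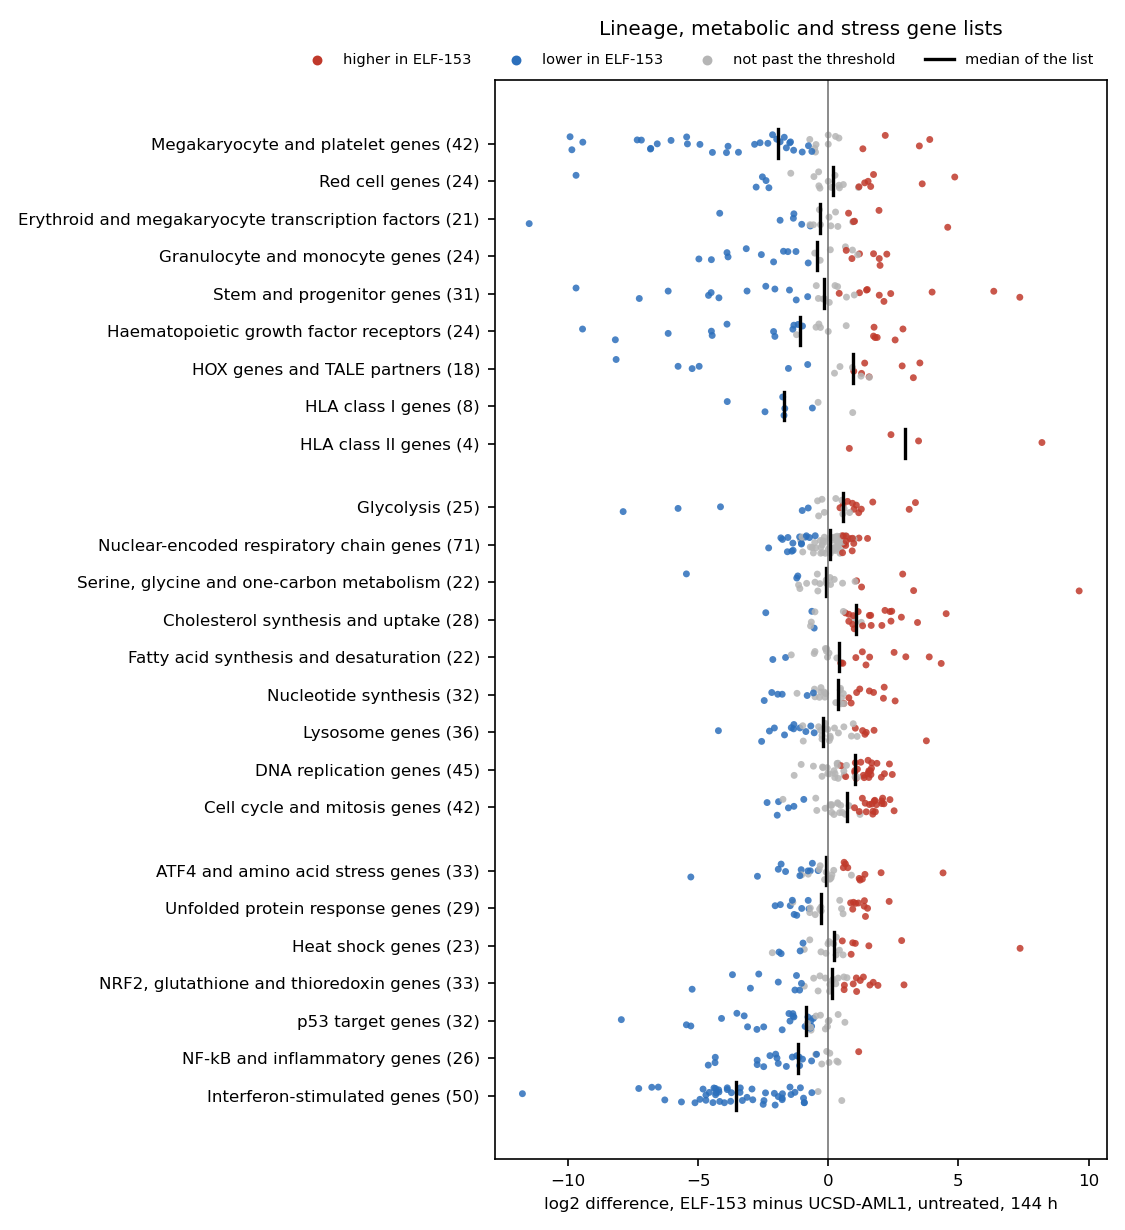
Log2 difference (ELF-153 minus UCSD-AML1) of each tested member of 25 gene lists in untreated cells at 144 h, 1 point a gene, red where higher and blue where lower in ELF-153 at limma adjusted p below 0.05, grey otherwise; black bars mark list medians and numbers in brackets the members tested. The interferon list lies almost wholly left of 0 with a median of -3.56, and most members of the cholesterol and DNA replication lists lie right of it, with medians of 1.07 and 1.02.

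The regulators of the megakaryocyte and red cell branches were split between the lines. MECOM, a zinc finger factor of stem cells whose overexpression marks a high-risk group of AML, had 0.726, 0 and 0 scaled reads in the ELF-153 libraries, against 3699, 3493 and 3187 in the UCSD-AML1 libraries. Its reads were 11000-fold (95% counting interval 1980 to 435000) lower, the lowest log2 difference of any listed transcription factor (log2 difference -11.49 ± 0.24 (SE), limma adjusted p = 3.71e-12). GATA1, the factor both branches need, had 31.9, 49.7 and 17.1 scaled reads in the ELF-153 libraries, against 462, 461 and 823 in the UCSD-AML1 libraries (log2 difference -4.17 ± 0.33 (SE), limma adjusted p = 4.46e-07). GATA2, which precedes GATA1 in progenitors, went the other way: it had 2031, 2497 and 2438 scaled reads in the ELF-153 libraries, against 1097, 1038 and 1320 in the UCSD-AML1 libraries (log2 difference 1.01 ± 0.15 (SE), limma adjusted p = 0.000136). The libraries of the lines did not overlap for MECOM, GATA1 and GATA2, and MECOM was all but silent in ELF-153. KLF1, the red cell factor that opposes the megakaryocyte fate, had 136, 244 and 236 scaled reads in the ELF-153 libraries, against 6.19, 5.75 and 10.7 in the UCSD-AML1 libraries (log2 difference 4.59 ± 0.28 (SE), limma adjusted p = 2.78e-08). FLI1, its megakaryocytic counterpart, averaged 113 ± 16.8 in ELF-153 and 410 ± 40.7 in UCSD-AML1 (SD, n = 3 each; log2 difference -1.85 ± 0.17 (SE), limma adjusted p = 1.75e-06). LMO2, TAL1 and MEF2C were also lower in ELF-153, with log2 differences of -1.34, -1.02 and -1.32, and CBFA2T3 was higher (1.95), a call that the ribosomal RNA covariate ended. In all, 5 of 21 tested factors were higher and 7 lower; RUNX1 (-0.34) and MYB (0.94) were among those that did not pass, at limma adjusted p = 0.244 and 0.14; MYB passed with the ribosomal RNA covariate, at 2.93.

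Megakaryocyte and platelet genes were mostly lower in ELF-153. Of 42 tested of 46 listed, 30 (71.4%) were lower in ELF-153 and 4 higher, with a median log2 difference of -1.91. ITGB3, the beta subunit of the platelet fibrinogen receptor, had 31.9, 39.1 and 36.3 scaled reads in the ELF-153 libraries, against 5313, 5017 and 5604 in the UCSD-AML1 libraries (log2 difference -7.18 ± 0.14 (SE), limma adjusted p = 3.21e-12). GP1BA, the von Willebrand factor binding chain of the platelet adhesion complex, had 2.9, 3.55 and 1.07 scaled reads in the ELF-153 libraries, against 2195, 1954 and 2813 in the UCSD-AML1 libraries, and GP9 of the same complex had 0.726, 5.92 and 2.14 scaled reads in the ELF-153 libraries, against 2998, 2860 and 3458 in the UCSD-AML1 libraries. Their adjusted p-values by limma were 5.27e-11 and 7.51e-10. For ITGB3, GP1BA and GP9 every ELF-153 library lay far below every UCSD-AML1 library. PPBP, a platelet granule chemokine, was still read in ELF-153: it had 343, 233 and 205 scaled reads in the ELF-153 libraries, against 12257, 11400 and 9694 in the UCSD-AML1 libraries. The related chemokine PF4 had 0.726, 3.55 and 0 scaled reads in the ELF-153 libraries, against 196, 158 and 215 in the UCSD-AML1 libraries. CLEC1B, SELP and F13A1 had no read in any ELF-153 library; with 3 reads over the group as the floor they were at least 172-fold, 73-fold and 32.5-fold lower. ITGA2B, the partner chain of ITGB3, differed much less: it had 212, 262 and 316 scaled reads in the ELF-153 libraries, against 451, 520 and 604 in the UCSD-AML1 libraries (ratio of means 1.99-fold lower, limma adjusted p = 0.00137). The members higher in ELF-153 were PDGFA and CD9, at 133 ± 10.4 in ELF-153 against 11.6 ± 4.77 in UCSD-AML1 and 32.9 ± 13.7 in ELF-153 against 1.43 ± 1.26 in UCSD-AML1 scaled reads, and PDGFB and ARHGAP6, which had few reads and were not called without ELF-153 replicate 3 or with the ribosomal RNA covariate.

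Red cell genes showed no common direction. Of 24 tested, 7 were higher and 5 lower, 29.2% and 20.8%, close to the shares of all genes. Of the 24, 9 had no read in at least 1 of the untreated lines, and treated libraries counted towards the filter for testing. RHAG, the Rhesus-associated glycoprotein of the red cell membrane, had 3.63, 4.74 and 1.07 scaled reads in the ELF-153 libraries, against 3456, 3876 and 2295 in the UCSD-AML1 libraries (log2 difference -9.69 ± 0.35 (SE), limma adjusted p = 3.88e-10), while TMCC2 had 187, 243 and 233 scaled reads in the ELF-153 libraries, against 6.19, 9.59 and 4.77 in the UCSD-AML1 libraries (log2 difference 4.86 ± 0.32 (SE), limma adjusted p = 6.15e-08). Neither gene's libraries overlapped between lines, so 1 red cell gene ran far below and the other far above UCSD-AML1. Globin RNA was close to absent: HBB averaged 1.74 ± 0.889 in ELF-153 and was at 0 in UCSD-AML1, and HBG1, which shares reads with its near-identical copy, did not pass, though it did without ELF-153 replicate 2 (1.81) or UCSD-AML1 replicate 3 (1.62). The call of HBB as higher rested on these few reads and was lost with the ribosomal RNA covariate (0.9, limma adjusted p = 0.255). Fewer red cell members were called higher with the ribosomal RNA covariate (1) and with a term for the 2 sets of libraries (3).

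**Figure D2:**
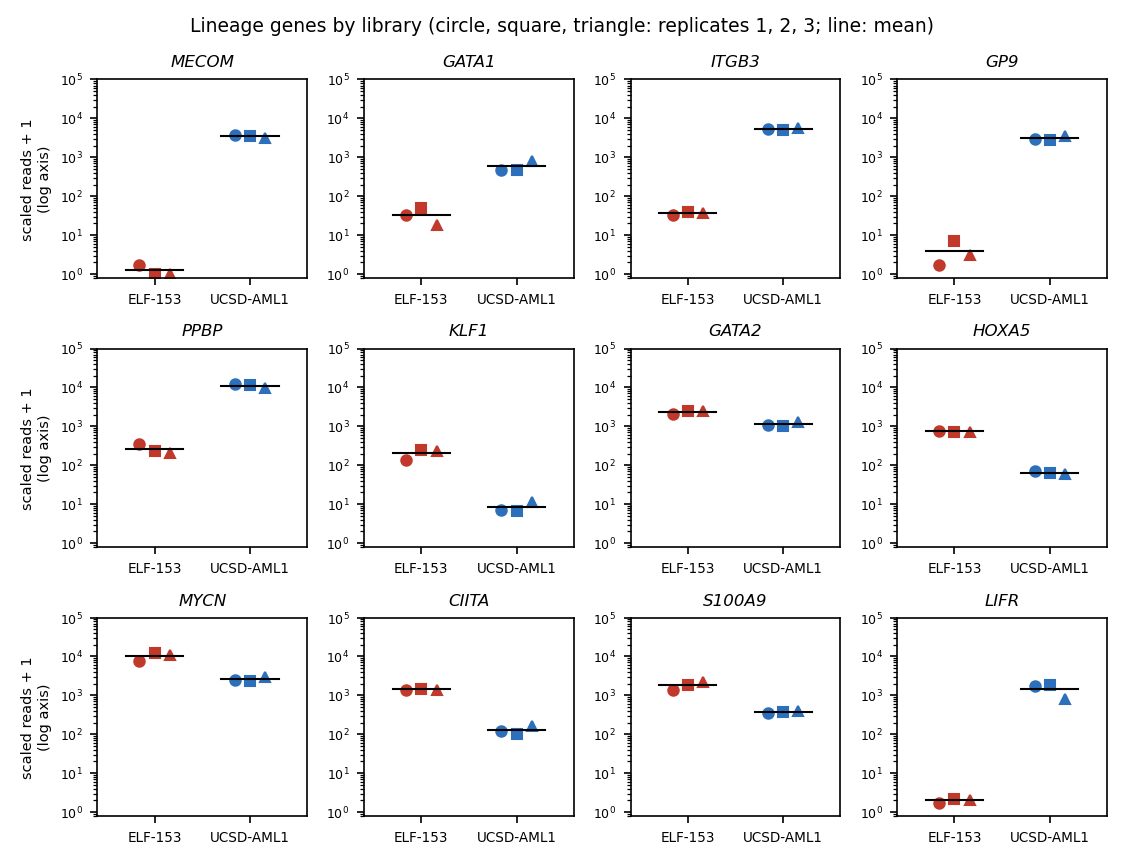
Scaled reads plus 1 (log axis) of 12 lineage genes in each untreated 144 h library, ELF-153 in red and UCSD-AML1 in blue; symbols mark the replicate and bars the mean of 3. MECOM, GP9 and LIFR sit below 10 in ELF-153 and far above in all 3 UCSD-AML1 libraries, while HOXA5, KLF1 and CIITA are higher in all 3 ELF-153 libraries.

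Granulocyte and monocyte genes differed in both directions. CSF3R, the granulocyte colony-stimulating factor receptor, had 31.2, 36.7 and 32 scaled reads in the ELF-153 libraries, against 546, 482 and 489 in the UCSD-AML1 libraries (log2 difference -3.89 ± 0.31 (SE), limma adjusted p = 3.69e-07). CSF1R, the macrophage growth factor receptor, had 2.9, 10.7 and 6.41 scaled reads in the ELF-153 libraries, against 115, 114 and 283 in the UCSD-AML1 libraries (log2 difference -4.49 ± 0.42 (SE), limma adjusted p = 1.84e-06). The calcium-binding alarmin S100A9 ran the other way, with 1379, 1803 and 2219 scaled reads in the ELF-153 libraries, against 360, 365 and 384 in the UCSD-AML1 libraries (log2 difference 2.25 ± 0.19 (SE), limma adjusted p = 7.71e-07), and LYZ, which encodes lysozyme, averaged 224 ± 37.2 in ELF-153 against 66.9 ± 14.5 in UCSD-AML1. Values of CSF3R, CSF1R and S100A9 did not overlap between lines. In all, 7 of 24 were higher and 11 lower. Of 17 myeloid transcription factors, 4 were higher, among them GFI1 (3.79), and 6 lower, among them the inhibitors of differentiation ID1, ID2 and ID3. ID3 averaged 0.879 ± 0.773 in ELF-153 against 271 ± 45.6 in UCSD-AML1 scaled reads, and its reads were 282-fold (95% counting interval 96.2 to 1370) lower. The call of ID2 was lost with the ribosomal RNA covariate, under which CEBPA passed as lower, at -1.38. CEBPA (log2 difference -0.56) and SPI1 (0.45) did not pass. Of 9 mast cell, basophil and eosinophil genes tested, 3 were higher and 4 lower: IL1RL1, the interleukin 33 receptor, and CPA3, the mast cell carboxypeptidase, averaged 4.07 ± 2.24 in ELF-153 against 1036 ± 65.3 in UCSD-AML1 and 5.98 ± 3.43 in ELF-153 against 668 ± 238 in UCSD-AML1 scaled reads, whereas the inhibitory lectins SIGLEC6 and SIGLEC8 went the other way. SIGLEC6 had 133, 124 and 92.9 scaled reads in the ELF-153 libraries, against 2.65, 0 and 0 in the UCSD-AML1 libraries. SIGLEC8 had 58.1, 43.8 and 44.8 scaled reads in the ELF-153 libraries, against 0, 0 and 0 in the UCSD-AML1 libraries, at least 50.5-fold higher.

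Stem and progenitor genes divided into a set for each line. HLF, a stem cell transcription factor, had 184, 268 and 173 scaled reads in the ELF-153 libraries, against 0, 0.959 and 0 in the UCSD-AML1 libraries; its reads were 611-fold (95% counting interval 109 to 24200) higher. SPINK2, a protease inhibitor of progenitors, had 125, 191 and 186 scaled reads in the ELF-153 libraries, against 0.884, 0.959 and 1.19 in the UCSD-AML1 libraries (log2 difference 6.36 ± 0.38 (SE), limma adjusted p = 2.46e-08). Both were all but unread in UCSD-AML1. CLEC12A, a lectin of leukaemic progenitors, had 0, 0 and 0 scaled reads in the ELF-153 libraries, against 1006, 994 and 563 in the UCSD-AML1 libraries, at least 925-fold lower. THY1 (CD90) and PROCR, surface markers of stem cells, averaged 0.242 ± 0.419 in ELF-153 against 184 ± 19.7 in UCSD-AML1 and 71.5 ± 17.3 in ELF-153 against 615 ± 34.5 in UCSD-AML1 scaled reads, and these were lower in all ELF-153 libraries. CD34, the classical progenitor antigen, had 423, 296 and 296 scaled reads in the ELF-153 libraries, against 277, 272 and 286 in the UCSD-AML1 libraries. The libraries did not overlap, but the difference was small and did not pass the test (log2 difference 0.26 ± 0.21 (SE), limma adjusted p = 0.305). Over protein-coding transcripts alone CD34 passed as higher in ELF-153 (0.86, limma adjusted p = 0.00571). MYCN had 7670, 12100 and 10785 scaled reads in the ELF-153 libraries, against 2458, 2307 and 3011 in the UCSD-AML1 libraries (log2 difference 1.96 ± 0.18 (SE), limma adjusted p = 1.58e-06), and CDK6, the kinase that opens the cell cycle of progenitors, had 13230, 9659 and 10777 scaled reads in the ELF-153 libraries, against 2983, 3138 and 1718 in the UCSD-AML1 libraries (log2 difference 2.14 ± 0.24 (SE), limma adjusted p = 1.06e-05). Neither MYCN nor CDK6 had overlapping libraries. MYC did not pass (log2 difference -0.55, limma adjusted p = 0.0545), but was lower without ELF-153 replicate 2 (-0.67) or with the ribosomal RNA covariate (-0.92). Over the list, 10 of 31 tested members were higher and 12 lower.

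HOX genes separated by cluster. HOXA5 had 775, 720 and 725 scaled reads in the ELF-153 libraries, against 71.6, 63.3 and 57.3 in the UCSD-AML1 libraries (log2 difference 3.52 ± 0.23 (SE), limma adjusted p = 5.52e-08), and HOXA6, HOXA7, HOXA9, HOXA10 and HOXA2 were higher as well, with log2 differences of 3.27, 1.28, 2.84, 0.98 and 1.57. HOXB genes ran the other way. HOXB4 had 1.45, 0 and 0 scaled reads in the ELF-153 libraries, against 412, 335 and 407 in the UCSD-AML1 libraries (log2 difference -8.15 ± 0.45 (SE), limma adjusted p = 1.09e-08), and HOXB2 and HOXB3 were at or near 0 in ELF-153. The HOXB4 reads were 606-fold (95% counting interval 167 to 5010) lower, and HOXB2 was at least 60.5-fold lower. HOXA11, at the other end of the HOXA cluster, was at 0 in ELF-153 and had 30.9, 33.6 and 26.2 in UCSD-AML1. Of the TALE partners that bind DNA with HOX proteins, PBX3 was higher (1.40) and MEIS1 lower (-0.79), the second with overlapping libraries and not without ELF-153 replicate 3, UCSD-AML1 replicate 1 or UCSD-AML1 replicate 2 (limma adjusted p = 0.0651, 0.0613 and 0.0717). MEIS1 had a difference of -0.19 with the ribosomal RNA covariate and -0.23 with the GC trend removed, and was called in neither. Over protein-coding transcripts alone PBX3 was not called (0.46). The count over 18 tested of 46 listed was 7 higher and 6 lower, which with the ribosomal RNA covariate became 4 and 4; HOXA2, HOXA7 and HOXA10 were then not called, nor was HOXA2 without the libraries that stood apart.

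Growth factor receptors were lower in ELF-153 in 12 of 24 cases and higher in 6. LIFR, the leukaemia inhibitory factor receptor, had 0.726, 1.18 and 1.07 scaled reads in the ELF-153 libraries, against 1746, 1824 and 822 in the UCSD-AML1 libraries (log2 difference -9.44 ± 0.42 (SE), limma adjusted p = 1.35e-09), which is 1600-fold (95% counting interval 546 to 7740) lower in reads. IL7R, the interleukin 7 receptor of lymphoid precursors, had 9.44, 2.37 and 7.47 scaled reads in the ELF-153 libraries, against 2418, 2312 and 1287 in the UCSD-AML1 libraries (log2 difference -8.18 ± 0.51 (SE), limma adjusted p = 6.1e-08). Both were at most at a few scaled reads in ELF-153. KIT, the stem cell factor receptor, had 692, 156 and 170 scaled reads in the ELF-153 libraries, against 1470, 1414 and 632 in the UCSD-AML1 libraries; ELF-153 replicate 1 lay above its other libraries and above UCSD-AML1 replicate 3 (log2 difference -2.05 ± 0.55 (SE), limma adjusted p = 0.0084). The difference of KIT was 0.09 with the ribosomal RNA covariate, where it was not called (limma adjusted p = 0.878). Insulin pathway receptors were the reverse: INSR averaged 254 ± 6.67 in ELF-153 against 42.2 ± 5.95 in UCSD-AML1 and IGF1R 28.4 ± 8.64 in ELF-153 against 3.64 ± 3.21 in UCSD-AML1 scaled reads. CSF2RB, the signalling chain of the GM-CSF receptor, did not pass (log2 difference 0.69 ± 0.39 (SE), limma adjusted p = 0.159). CSF2RA, its ligand-binding partner, was listed at 0 in all 6 libraries, and FLT3 stood at 1.45, 1.18 and 1.07 in ELF-153 and 0 in UCSD-AML1, below the level tested. Whether the 0 of CSF2RA reflects absent RNA or reads that were not counted was not tested.

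HLA class II and class I genes went in opposite directions. CIITA, the master activator of class II genes, had 1413, 1491 and 1341 scaled reads in the ELF-153 libraries, against 122, 101 and 167 in the UCSD-AML1 libraries (log2 difference 3.47 ± 0.19 (SE), limma adjusted p = 1.03e-08). HLA-DRB1 and CD74, the invariant chain that escorts class II proteins, averaged 99 ± 20.9 in ELF-153 against 18 ± 5.47 in UCSD-AML1 and 833 ± 198 in ELF-153 against 467 ± 11.5 in UCSD-AML1 scaled reads. CIITA and these 2 genes were higher in every ELF-153 library. All 4 class II genes tested of 13 listed were higher; with the GC trend removed 3 were, CD74 being lost. HLA-DRB5 was among them, though reads of HLA-DR genes can be shared between copies and haplotypes and the listed value is uncertain. Of 8 class I and antigen processing genes tested, 6 were lower and 0 higher by limma, with 3 lower when ELF-153 replicate 3 was left out. B2M, the light chain of every class I molecule, had 131, 82.9 and 67.3 scaled reads in the ELF-153 libraries, against 289, 320 and 278 in the UCSD-AML1 libraries (log2 difference -1.70 ± 0.24 (SE), limma adjusted p = 7.01e-05), and ERAP1, which trims the peptides, had 277, 257 and 261 scaled reads in the ELF-153 libraries, against 1658, 1743 and 1022 in the UCSD-AML1 libraries (log2 difference -2.43 ± 0.21 (SE), limma adjusted p = 8.16e-07).

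Single markers of other lineages were present in each line. PAX5, the B cell factor, had 375, 522 and 466 scaled reads in the ELF-153 libraries, against 33.6, 38.3 and 58.4 in the UCSD-AML1 libraries (log2 difference 3.38 ± 0.22 (SE), limma adjusted p = 5.38e-08), and CD3D, a chain of the T cell receptor complex, had 153, 146 and 179 scaled reads in the ELF-153 libraries, against 0, 0.959 and 1.19 in the UCSD-AML1 libraries (log2 difference 6.62 ± 0.45 (SE), limma adjusted p = 8.48e-08). Both were found in every ELF-153 library, and CD3D was at or near 0 in UCSD-AML1. CD5, a T cell surface receptor, was lower in ELF-153, with 1.45, 8.29 and 5.34 scaled reads in the ELF-153 libraries, against 546, 476 and 735 in the UCSD-AML1 libraries (log2 difference -6.78 ± 0.41 (SE), limma adjusted p = 3.02e-08). CDH5, the cadherin of endothelial junctions, was lower as well, with 0.726, 0 and 1.07 scaled reads in the ELF-153 libraries, against 1249, 1050 and 1359 in the UCSD-AML1 libraries, which is 1910-fold (95% counting interval 529 to 15800) lower in reads (limma adjusted p = 1.52e-10). The B cell list had 3 higher and 3 lower of 7 tested. The T and NK cell list had 4 and 3 of 11, and the fibroblast, endothelial and epithelial list 1 and 4 of 10, with 0 higher under the ribosomal RNA covariate and 2 without the libraries that stood apart or ELF-153 replicate 2. Summed over that last list, ELF-153 libraries held 281, 532 and 459 scaled reads against 1792, 1624 and 2062 in UCSD-AML1. Whether a few other cells contributed to either line was not tested.

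Of serine, glycine and one-carbon genes 36.4% were called, against 51.8% of all genes, and PSAT1, PHGDH and SHMT1 were among those higher in ELF-153. PSAT1, the aminotransferase of serine synthesis, had 738, 811 and 853 scaled reads in the ELF-153 libraries, against 0, 0 and 0 in the UCSD-AML1 libraries, at least 795-fold higher (log2 difference 9.64 ± 0.33 (SE), limma adjusted p = 1.69e-10). PHGDH, the first enzyme of that route, had 171, 181 and 169 scaled reads in the ELF-153 libraries, against 20.3, 17.3 and 34.6 in the UCSD-AML1 libraries (log2 difference 2.86 ± 0.47 (SE), limma adjusted p = 0.000242), and SHMT1, which passes the carbon of serine to folate in the cytosol, had 266, 261 and 287 scaled reads in the ELF-153 libraries, against 22.1, 32.6 and 27.4 in the UCSD-AML1 libraries (log2 difference 3.28 ± 0.36 (SE), limma adjusted p = 8.6e-06). All 3 genes were higher in every ELF-153 library, and PSAT1 was unread in UCSD-AML1. PSPH, the last enzyme of the route, did not pass (log2 difference -1.14, limma adjusted p = 0.0853). CBS, which draws serine into cysteine synthesis, was lower in ELF-153, with 0.726, 0 and 1.07 scaled reads in the ELF-153 libraries, against 71.6, 72.9 and 54.9 in the UCSD-AML1 libraries, which is 106-fold (95% counting interval 29.1 to 885) lower in reads (limma adjusted p = 1.16e-06), and so was MTHFD2, the mitochondrial folate enzyme, with 1253, 945 and 976 scaled reads in the ELF-153 libraries, against 2713, 2800 and 1751 in the UCSD-AML1 libraries (log2 difference -1.17 ± 0.20 (SE), limma adjusted p = 0.000355). Over the list, 5 of 22 tested were higher and 3 lower by limma. The lower count depended on the fit, with 5 under TMM factors, 6 under edgeR with RLE factors and 7 under both DESeq2 and limma-voom; without the libraries that stood apart 6 were lower, and without UCSD-AML1 replicate 3 alone 5.

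Cholesterol synthesis and uptake genes were higher in ELF-153 in 19 of 28 cases (67.9%) and lower in 3, with a median log2 difference of 1.07. CYP51A1, the lanosterol demethylase, had 502, 890 and 809 scaled reads in the ELF-153 libraries, against 104, 94 and 105 in the UCSD-AML1 libraries (log2 difference 2.81 ± 0.22 (SE), limma adjusted p = 3.47e-07). MVD, the mevalonate diphosphate decarboxylase, had 245, 360 and 299 scaled reads in the ELF-153 libraries, against 54.8, 44.1 and 76.3 in the UCSD-AML1 libraries (log2 difference 2.37 ± 0.23 (SE), limma adjusted p = 2.63e-06). SQLE, which oxidises squalene, had 2135, 3109 and 3030 scaled reads in the ELF-153 libraries, against 1391, 1282 and 1412 in the UCSD-AML1 libraries (log2 difference 1.00 ± 0.17 (SE), limma adjusted p = 0.00032). Values of CYP51A1, MVD and SQLE did not overlap between lines. SREBF2, the transcription factor of the pathway, was higher too, averaging 163 ± 18.9 in ELF-153 against 65.3 ± 12.2 in UCSD-AML1 scaled reads, as were MVK and LSS. IDI1, the isopentenyl diphosphate isomerase, and STARD4, a sterol carrier, were lower, with log2 differences of -0.63 and -2.40. IDI1 was not called without UCSD-AML1 replicate 1 or 2, nor STARD4 with the ribosomal RNA covariate (-1.10). With the ribosomal RNA covariate 12 members were higher and 1 lower, and with the GC trend removed or without UCSD-AML1 replicate 2 1 was lower. Fatty acid synthesis went the same way, with 10 higher and 2 lower of 22, and 1 lower with that covariate or without ELF-153 replicate 3. FASN, the fatty acid synthase, had 6128, 11021 and 11185 scaled reads in the ELF-153 libraries, against 2280, 2048 and 5896 in the UCSD-AML1 libraries (log2 difference 1.59 ± 0.36 (SE), limma adjusted p = 0.00286), and the desaturases SCD and FADS2 averaged 7090 ± 963 in ELF-153 against 3400 ± 381 in UCSD-AML1 and 404 ± 50.7 in ELF-153 against 162 ± 7.47 in UCSD-AML1 scaled reads. FASN was not called with the ribosomal RNA covariate, at 0.51. Over protein-coding transcripts alone SREBF2 (0.37) and FADS2 (0.54) were not called. Of 22 fatty acid oxidation genes, 3 were higher, CPT1A among them (0.77), and 5 lower; the covariate left 1 and 1, and leaving out single libraries other than UCSD-AML1 replicate 3 gave 2 or 3 lower.

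Glycolysis genes were higher in ELF-153 in 11 of 25 cases and lower in 5, and the 3 members of smallest adjusted p, HK3, SLC2A3 and PFKFB2, were lower. PFKFB2, which makes the activator of phosphofructokinase, had 15.2, 1.18 and 8.54 scaled reads in the ELF-153 libraries, against 2013, 1936 and 1140 in the UCSD-AML1 libraries (log2 difference -7.88 ± 0.55 (SE), limma adjusted p = 1.98e-07). HK3 and the glucose transporter SLC2A3 averaged 2.18 ± 2.22 in ELF-153 against 149 ± 15.4 in UCSD-AML1 and 11.5 ± 3.12 in ELF-153 against 216 ± 31 in UCSD-AML1 scaled reads. All 3 were lower in every ELF-153 library. HK2, the hexokinase of many tumours, was higher, with 414, 681 and 699 scaled reads in the ELF-153 libraries, against 143, 137 and 285 in the UCSD-AML1 libraries (log2 difference 1.71 ± 0.29 (SE), limma adjusted p = 0.00032), and SLC2A1, the other main glucose transporter, averaged 3896 ± 334 in ELF-153 against 2636 ± 388 in UCSD-AML1 (log2 difference 0.57 ± 0.16 (SE), limma adjusted p = 0.0101). Outside the list, PGM1, which moves glucose phosphate into and out of glycogen, had 751, 1392 and 1188 scaled reads in the ELF-153 libraries, against 28.3, 18.2 and 35.8 in the UCSD-AML1 libraries (log2 difference 5.29 ± 0.31 (SE), limma adjusted p = 2.03e-08). HK2 and PGM1 were higher in every ELF-153 library. With the ribosomal RNA covariate 4 glycolysis genes were higher and 6 lower, and SLC2A1 was not called; edgeR with RLE factors gave 7 higher. The pentose phosphate list had 3 higher and 1 lower of 8, and 0 higher under the covariate by limma.

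Mitochondrial genes had no common direction. Of 33 TCA cycle and pyruvate genes 10 were higher and 6 lower, with MDH2 (1.46) and ME1 (-2.99) the members of smallest adjusted p; 3 were lower with the ribosomal RNA covariate and 10 without the libraries that stood apart. Of 71 nuclear-encoded respiratory chain genes 13 were higher and 15 lower, 39.4% in all against 51.8% of all genes; leaving out ELF-153 replicate 2 or 3 or UCSD-AML1 replicate 2 gave 7 higher, and leaving out UCSD-AML1 replicate 1 or 2 gave 7 lower. The ribosomal RNA covariate gave 5 and 3, and leaving out both libraries that stood apart gave 20 higher. Of 13 mitochondrially encoded genes 0 were higher and 1, MT-ND6, was lower, by limma, 7.69% in all. With edgeR and TMM factors 1 was lower too, and with RLE factors 2. The call of MT-ND6 had overlapping libraries and was lost with the ribosomal RNA covariate and without any of ELF-153 replicate 2, ELF-153 replicate 3, UCSD-AML1 replicate 1 or UCSD-AML1 replicate 2. At most 3 were higher and 3 lower under the settings tried. Mitochondrial ribosomal protein genes split 21 higher and 15 lower of 69, and 6 and 7 under the ribosomal RNA covariate. Leaving out ELF-153 replicate 2 gave 12 higher and 7 lower, and UCSD-AML1 replicate 1 gave 13 and 7. UCSD-AML1 replicate 2 gave 13 and 6 when left out, and ELF-153 replicate 3 gave 8 lower.

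DNA replication genes were higher in ELF-153 in 24 of 45 cases (53.3%) and lower in 0. GINS2, a subunit of the replicative helicase complex, had 4203, 5598 and 5599 scaled reads in the ELF-153 libraries, against 1108, 1246 and 1072 in the UCSD-AML1 libraries (log2 difference 2.16 ± 0.16 (SE), limma adjusted p = 1.56e-07). MCM7, of the helicase ring, had 258, 231 and 261 scaled reads in the ELF-153 libraries, against 48.6, 47 and 48.9 in the UCSD-AML1 libraries (log2 difference 2.35 ± 0.19 (SE), limma adjusted p = 5.84e-07). Both were higher in every ELF-153 library. CDT1, which loads that ring, and POLD1, the catalytic subunit of polymerase delta, averaged 3982 ± 1031 in ELF-153 against 1298 ± 373 in UCSD-AML1 and 214 ± 40.9 in ELF-153 against 59.2 ± 21.2 in UCSD-AML1 scaled reads. PCNA, the sliding clamp, did not pass (log2 difference 0.25, limma adjusted p = 0.37), but was higher without ELF-153 replicate 1 (0.53). Without ELF-153 replicate 1 and UCSD-AML1 replicate 3, 24 were higher and 6 lower, without UCSD-AML1 replicate 3 alone 2 were lower, and edgeR gave 24 and 1. Cell cycle and mitosis genes were 19 higher and 6 lower of 42. E2F1 and E2F2, activators of S phase genes, averaged 2843 ± 689 in ELF-153 against 850 ± 111 in UCSD-AML1 and 3227 ± 650 in ELF-153 against 731 ± 166 in UCSD-AML1 scaled reads, and MKI67, the proliferation antigen, averaged 840 ± 138 in ELF-153 against 177 ± 99.9 in UCSD-AML1. TOP2A, the mitotic topoisomerase, was called lower, with 7396, 2016 and 2075 scaled reads in the ELF-153 libraries, against 16768, 16148 and 6667 in the UCSD-AML1 libraries (log2 difference -1.96 ± 0.52 (SE), limma adjusted p = 0.00749). ELF-153 replicate 1 lay above UCSD-AML1 replicate 3 for TOP2A, and the difference was 0.06 with the ribosomal RNA covariate. That covariate gave the cycle list 15 higher and 0 lower. Leaving out ELF-153 replicate 2 gave 3 lower, and ELF-153 replicate 3, UCSD-AML1 replicate 1 or UCSD-AML1 replicate 2 gave 2 lower.

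Nucleotide synthesis genes were 10 higher and 6 lower of 32, with 2 lower under the ribosomal RNA covariate and 3 without UCSD-AML1 replicate 1. CAD and DHODH, consecutive in pyrimidine synthesis, averaged 345 ± 44.4 in ELF-153 against 82.5 ± 35.3 in UCSD-AML1 and 148 ± 40 in ELF-153 against 25.4 ± 11.9 in UCSD-AML1 scaled reads. SAMHD1, which degrades deoxynucleotides, had 271, 300 and 313 scaled reads in the ELF-153 libraries, against 1558, 1483 and 1013 in the UCSD-AML1 libraries (log2 difference -2.17 ± 0.20 (SE), limma adjusted p = 1.68e-06), below UCSD-AML1 in every library. Among CDK inhibitors and D cyclins, CDKN2A had 251, 378 and 302 scaled reads in the ELF-153 libraries, against 15.9, 21.1 and 22.7 in the UCSD-AML1 libraries (log2 difference 3.89 ± 0.23 (SE), limma adjusted p = 1.99e-08) and CCND2 had 4790, 5351 and 5477 scaled reads in the ELF-153 libraries, against 12281, 12022 and 12004 in the UCSD-AML1 libraries (log2 difference -1.22 ± 0.12 (SE), limma adjusted p = 3.07e-06); the list counted 4 higher and 7 lower of 16, with 2 higher without UCSD-AML1 replicate 1; CDKN2B did not pass. CDKN2A and CCND2 libraries did not overlap between lines. Ribosome biogenesis genes were 16 higher, among them URB2 and PPAN (1.38 and 2.19), and 4 lower of 39; 1 was lower with the covariate, 9 without both libraries that stood apart and 10 without ELF-153 replicate 1 alone. DNMT3B, a DNA methyltransferase, did not pass (log2 difference 1.00 ± 0.42 (SE), limma adjusted p = 0.0621), but did without ELF-153 replicate 1 (1.40).

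Other nutrient pathways had no common direction. Haem synthesis and iron genes were 7 higher and 5 lower of 24, with 4 higher without ELF-153 replicate 2 and 9 lower without the libraries that stood apart. Glutamine, arginine and proline genes were 5 higher and 7 lower of 24: the glutamine transporter SLC1A5 averaged 8470 ± 1894 in ELF-153 against 4086 ± 994 in UCSD-AML1 scaled reads. Lysosome genes were 6 higher and 12 lower of 36, SCARB2, a membrane receptor of lysosomes, having 144, 94.8 and 99.3 scaled reads in the ELF-153 libraries, against 2511, 2616 and 1359 in the UCSD-AML1 libraries (log2 difference -4.22 ± 0.30 (SE), limma adjusted p = 1.17e-07). Under the ribosomal RNA covariate 6 lysosome genes, 3 glutamine, arginine and proline genes and 3 haem and iron genes were lower, and SLC1A5 was not called.

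**Figure D3:**
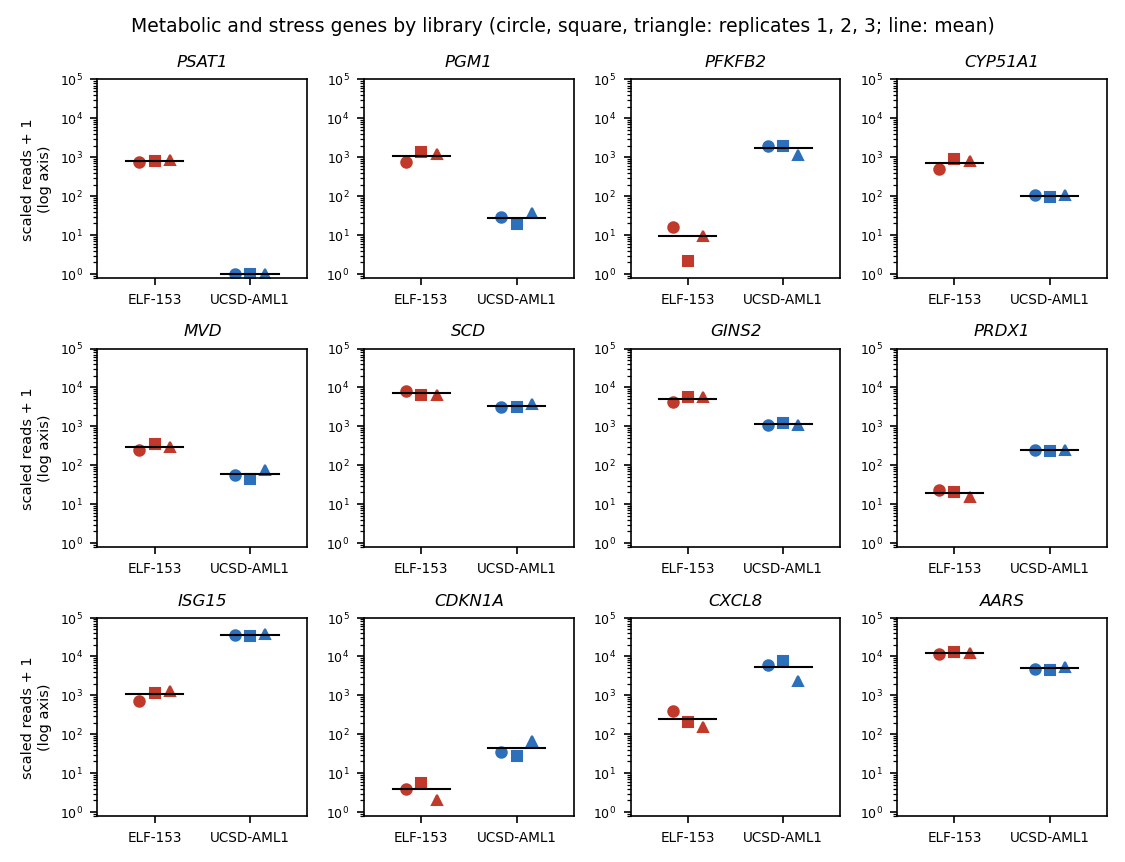
Scaled reads plus 1 (log axis) of 12 metabolic and stress genes in each untreated 144 h library, ELF-153 in red and UCSD-AML1 in blue; symbols mark the replicate and bars the mean of 3. PSAT1 was at 0 in all 3 UCSD-AML1 libraries, and ISG15, CXCL8 and CDKN1A were lower in all 3 ELF-153 libraries.

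Interferon-stimulated genes had the highest share of members called in 1 direction among the stress lists. Of 50 tested of 52 listed, 48 (96%) were lower in ELF-153, with a median log2 difference of -3.56. ISG15, a ubiquitin-like modifier, had 713, 1142 and 1307 scaled reads in the ELF-153 libraries, against 35491, 33002 and 38141 in the UCSD-AML1 libraries (log2 difference -5.12 ± 0.23 (SE), limma adjusted p = 1.91e-09). IFI44L had 1.45, 1.18 and 0 scaled reads in the ELF-153 libraries, against 7665, 7964 and 3569 in the UCSD-AML1 libraries; its reads were 6980-fold (95% counting interval 2390 to 33800) lower. MX1, an antiviral GTPase, had 16.7, 13 and 11.7 scaled reads in the ELF-153 libraries, against 1348, 1381 and 1347 in the UCSD-AML1 libraries (log2 difference -6.53 ± 0.17 (SE), limma adjusted p = 2.18e-11). The lines were far apart for ISG15, IFI44L and MX1 in every library. STAT2 and IRF9, transcription factors that carry the interferon signal, were lower too and averaged 429 ± 13.2 in ELF-153 against 1157 ± 60.2 in UCSD-AML1 and 104 ± 22.1 in ELF-153 against 426 ± 57.5 in UCSD-AML1 scaled reads; counted over protein-coding transcripts alone, IRF9 had a difference of 0.80 and was not called. EPSTI1 had no read in ELF-153 and was at least 167-fold lower. IRF1 (-0.39) and IFITM2 (0.52), which has near-identical neighbours, were the members that did not pass, at limma adjusted p = 0.0668 and 0.077; IFITM2 passed as higher without ELF-153 replicate 1 (0.72), and IRF1 as lower without ELF-153 replicate 3 (-0.50) or with the ribosomal RNA covariate (-0.67). The count of lower genes was 44 with the ribosomal RNA covariate and 49 with the GC trend removed.

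Many of these promoters hold a short element, and 3 are shown because they belong to members described above. The interferon-stimulated response element, taken as GAAANNGAAA, was looked for on both strands in the RefSeq promoter windows of build GRCh38.p14, from 250 bases before to 50 after each gene's start. It was found in 24 of 38 listed interferon genes with a window (63.2%), against 996 of 27305 windows in all (3.65%). All 24 were lower in ELF-153, as were 48 of the 50 tested members (96%) with or without the element. The count therefore does not tie the element to the direction. Matches are in capitals, overlapping ones merged, and every match lies on the strand printed. A match is a description of these letters, not evidence of binding.
ISG15, chr1:1013247-1013546, plus strand: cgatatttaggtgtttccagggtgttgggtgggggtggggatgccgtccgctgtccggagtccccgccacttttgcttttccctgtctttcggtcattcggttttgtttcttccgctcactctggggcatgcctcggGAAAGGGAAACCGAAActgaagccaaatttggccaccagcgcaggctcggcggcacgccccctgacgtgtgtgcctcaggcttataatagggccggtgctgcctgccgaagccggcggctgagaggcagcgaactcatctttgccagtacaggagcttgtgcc
IFI44L, chr1:78620198-78620497, plus strand: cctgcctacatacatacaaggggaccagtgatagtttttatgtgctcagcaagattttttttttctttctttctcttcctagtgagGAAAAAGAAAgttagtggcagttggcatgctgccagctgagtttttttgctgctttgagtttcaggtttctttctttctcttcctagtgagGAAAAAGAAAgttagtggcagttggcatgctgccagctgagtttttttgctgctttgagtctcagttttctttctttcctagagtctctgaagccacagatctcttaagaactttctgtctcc
MX1, chr21:41420308-41420607, plus strand: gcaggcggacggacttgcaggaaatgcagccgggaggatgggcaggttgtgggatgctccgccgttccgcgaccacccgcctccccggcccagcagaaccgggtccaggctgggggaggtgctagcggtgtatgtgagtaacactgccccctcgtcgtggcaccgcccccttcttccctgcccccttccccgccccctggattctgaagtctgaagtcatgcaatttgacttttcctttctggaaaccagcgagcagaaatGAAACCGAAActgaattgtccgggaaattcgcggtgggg
ISG15 holds 2 overlapping matches upstream of its start, IFI44L holds 2 in separate copies of a repeated stretch, and MX1 holds 1 just after its start.

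NF-kB and inflammatory genes were lower in ELF-153 in 18 of 26 cases (69.2%) and higher in 1, the urokinase receptor PLAUR (1.17), a call the ribosomal RNA covariate ended. Other members passed as higher under that covariate, where 2 were, and 2 were higher without ELF-153 replicate 1. CXCL8, the neutrophil attractant interleukin 8, had 391, 205 and 155 scaled reads in the ELF-153 libraries, against 5936, 7408 and 2357 in the UCSD-AML1 libraries (log2 difference -4.34 ± 0.43 (SE), limma adjusted p = 4.05e-06). IL1B, the fever cytokine, had 462, 486 and 442 scaled reads in the ELF-153 libraries, against 2763, 2790 and 2234 in the UCSD-AML1 libraries (log2 difference -2.48 ± 0.15 (SE), limma adjusted p = 2.44e-08). NFKBIA, the inhibitor that NF-kB itself induces, had 125, 129 and 114 scaled reads in the ELF-153 libraries, against 575, 586 and 586 in the UCSD-AML1 libraries (log2 difference -2.24 ± 0.15 (SE), limma adjusted p = 6.46e-08). All 3 were lower in every ELF-153 library. CXCL1, CXCL2 and CXCL3 were lower with log2 differences of -4.35, -1.12 and -2.02. RELA, the transactivating subunit, did not pass (log2 difference 0.03 ± 0.20 (SE), limma adjusted p = 0.905). Some of these promoters also hold an element, shown for the inhibitor and for 1 chemokine. The NF-kB element, taken as GGGANNTTCC on both strands of the same windows, was found in 10 of 29 listed genes (34.5%), against 445 of 27305 windows (1.63%). Of the 10, 8 were lower in ELF-153, beside 18 of 26 tested members (69.2%) with or without the element. So few genes do not tie the element to the direction.
NFKBIA, chr14:35404700-35404999, minus strand: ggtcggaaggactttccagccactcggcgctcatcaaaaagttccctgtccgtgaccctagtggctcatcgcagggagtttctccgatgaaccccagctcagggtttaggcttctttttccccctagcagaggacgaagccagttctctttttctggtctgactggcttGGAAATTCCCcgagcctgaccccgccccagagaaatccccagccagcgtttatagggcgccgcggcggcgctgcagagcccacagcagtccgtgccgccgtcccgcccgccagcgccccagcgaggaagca
CXCL2, chr4:74099146-74099445, minus strand: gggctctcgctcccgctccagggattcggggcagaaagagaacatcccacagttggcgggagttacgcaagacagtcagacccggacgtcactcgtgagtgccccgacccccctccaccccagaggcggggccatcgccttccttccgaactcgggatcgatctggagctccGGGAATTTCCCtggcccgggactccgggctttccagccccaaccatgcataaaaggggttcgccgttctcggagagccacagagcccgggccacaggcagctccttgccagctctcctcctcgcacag
The capitals mark the element, upstream of each start. In NFKBIA it reads on the strand opposite to the one printed, and in CXCL2 matches on both strands overlap.

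p53 target genes were lower in ELF-153 in 21 of 32 cases (65.6%) and higher in 0, with up to 3 higher under the settings tried. CDKN1A, the p21 inhibitor of cyclin-dependent kinases, had 2.9, 4.74 and 1.07 scaled reads in the ELF-153 libraries, against 34.5, 26.8 and 68 in the UCSD-AML1 libraries (log2 difference -3.51 ± 0.43 (SE), limma adjusted p = 2.13e-05). MDM2, an E3 ubiquitin ligase, had 16.7, 13 and 19.2 scaled reads in the ELF-153 libraries, against 46, 56.6 and 38.2 in the UCSD-AML1 libraries (log2 difference -1.47 ± 0.32 (SE), limma adjusted p = 0.00219). PLK2, a stress-responsive kinase, had 3.63, 0 and 1.07 scaled reads in the ELF-153 libraries, against 635, 608 and 371 in the UCSD-AML1 libraries (log2 difference -7.95 ± 0.44 (SE), limma adjusted p = 1.41e-08), and GDF15, a secreted stress cytokine, averaged 0.84 ± 0.752 in ELF-153 against 66.5 ± 12.1 in UCSD-AML1 scaled reads. CDKN1A, MDM2 and PLK2 were lower in every ELF-153 library, MDM2 not being called with the ribosomal RNA covariate. BBC3 and PMAIP1, apoptosis genes of the same list, did not pass, with log2 differences of -0.66 and 0.03, though BBC3 did without ELF-153 replicate 2 (-0.90) or with the ribosomal RNA covariate (-1.59). With the ribosomal RNA covariate 16 members were lower. BCL2 family genes were 4 higher and 6 lower of 16, with 2 higher under that covariate, where MCL1 was not called. BCL2L11, the killer protein BIM, had 391, 386 and 430 scaled reads in the ELF-153 libraries, against 89.3, 78.6 and 113 in the UCSD-AML1 libraries (log2 difference 2.10 ± 0.19 (SE), limma adjusted p = 1.29e-06), and MCL1, a survival protein, had 2096, 1385 and 1330 scaled reads in the ELF-153 libraries, against 4235, 4294 and 2499 in the UCSD-AML1 libraries (log2 difference -1.19 ± 0.23 (SE), limma adjusted p = 0.000975). Neither gene's libraries overlapped. BCL2 did not pass (0.29), but did with the covariate (1.01).

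Amino acid and protein folding stress genes were divided. Among 33 ATF4 and amino acid stress genes 10 were higher and 11 lower, and 7 lower with the ribosomal RNA covariate. The alanyl-tRNA synthetase AARS had 11347, 12665 and 12554 scaled reads in the ELF-153 libraries, against 4853, 4549 and 5403 in the UCSD-AML1 libraries (log2 difference 1.31 ± 0.13 (SE), limma adjusted p = 2.82e-06), and ASNS, the asparagine synthetase, averaged 34.9 ± 1.81 in ELF-153 against 7.94 ± 2.02 in UCSD-AML1 scaled reads. TRIB3, a pseudokinase induced late in the response, had 679, 770 and 803 scaled reads in the ELF-153 libraries, against 2340, 2242 and 2433 in the UCSD-AML1 libraries (log2 difference -1.64 ± 0.16 (SE), limma adjusted p = 2.12e-06). SLC7A11, the cystine transporter, had 645, 462 and 401 scaled reads in the ELF-153 libraries, against 2283, 2450 and 1169 in the UCSD-AML1 libraries (log2 difference -1.92 ± 0.29 (SE), limma adjusted p = 0.000116). AARS was higher and TRIB3 and SLC7A11 lower in every ELF-153 library. ATF4 itself averaged 720 ± 31.2 in ELF-153 against 948 ± 110 in UCSD-AML1 (log2 difference -0.39 ± 0.15 (SE), limma adjusted p = 0.0409), a call lost without ELF-153 replicate 2 or 3 or UCSD-AML1 replicate 2 or 3, without both libraries that stood apart (limma adjusted p = 0.0595), with the ribosomal RNA covariate (limma adjusted p = 0.089) and under edgeR with TMM factors (adjusted p = 0.0547). Unfolded protein response genes were 10 higher and 9 lower of 29. CALR, a chaperone of the endoplasmic reticulum, had 438, 495 and 580 scaled reads in the ELF-153 libraries, against 76, 108 and 115 in the UCSD-AML1 libraries (log2 difference 2.34 ± 0.21 (SE), limma adjusted p = 1.27e-06), whereas XBP1, a transcription factor of the response, averaged 102 ± 15.1 in ELF-153 against 396 ± 176 in UCSD-AML1 (log2 difference -1.84 ± 0.35 (SE), limma adjusted p = 0.000745). With the ribosomal RNA covariate 6 were higher and 1 lower, and XBP1 was not called. Heat shock genes were 7 higher and 4 lower of 23, with 7 lower without UCSD-AML1 replicate 3. HSPA4L had 179, 213 and 228 scaled reads in the ELF-153 libraries, against 0, 0.959 and 0 in the UCSD-AML1 libraries, which is 610-fold (95% counting interval 109 to 24100) higher in reads (limma adjusted p = 1.79e-07), and its relative HSPA4 had 2823, 1816 and 1803 scaled reads in the ELF-153 libraries, against 9026, 8755 and 5086 in the UCSD-AML1 libraries (log2 difference -1.81 ± 0.26 (SE), limma adjusted p = 7.23e-05).

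Oxidative stress, hypoxia and immediate early genes also moved both ways. NRF2, glutathione and thioredoxin genes were 11 higher and 9 lower of 33. PRDX1, a peroxiredoxin, had 22.5, 19 and 13.9 scaled reads in the ELF-153 libraries, against 243, 237 and 250 in the UCSD-AML1 libraries (log2 difference -3.68 ± 0.27 (SE), limma adjusted p = 1.64e-07), and HMOX1, the inducible haem oxygenase, had 12.3, 14.2 and 8.54 scaled reads in the ELF-153 libraries, against 106, 77.7 and 58.4 in the UCSD-AML1 libraries (log2 difference -2.67 ± 0.25 (SE), limma adjusted p = 1.85e-06). GSTP1, a glutathione transferase, was higher, with 147, 253 and 269 scaled reads in the ELF-153 libraries, against 23, 31.6 and 29.8 in the UCSD-AML1 libraries (log2 difference 2.91 ± 0.34 (SE), limma adjusted p = 1.39e-05). Libraries of PRDX1, HMOX1 and GSTP1 did not overlap between lines. The NRF2 list had 5 higher and 9 lower with the ribosomal RNA covariate. Hypoxia genes were 8 higher and 4 lower of 22, and 5 higher when ELF-153 replicate 2 or 3 or UCSD-AML1 replicate 2 was left out. They were 2 lower without ELF-153 replicate 2 or UCSD-AML1 replicate 1, and 4 higher and 1 lower with the covariate. AP-1 and immediate early genes were 9 higher and 11 lower of 29, with 5 higher without ELF-153 replicate 2 and 4 with the covariate. The phosphatases that switch off ERK differed in opposite ways: DUSP4 had 1318, 1849 and 1920 scaled reads in the ELF-153 libraries, against 7.07, 22.1 and 26.2 in the UCSD-AML1 libraries (log2 difference 6.61 ± 0.36 (SE), limma adjusted p = 1.03e-08), and DUSP5 had 617, 550 and 464 scaled reads in the ELF-153 libraries, against 3667, 3491 and 3123 in the UCSD-AML1 libraries (log2 difference -2.66 ± 0.16 (SE), limma adjusted p = 2.39e-08). Neither phosphatase had overlapping libraries. FOS and JUN, which pair to form AP-1, averaged 162 ± 37.5 in ELF-153 against 48.4 ± 10.5 in UCSD-AML1 and 653 ± 136 in ELF-153 against 238 ± 17.5 in UCSD-AML1 scaled reads. Of 7 metallothionein genes and regulators 2 were higher, MT1X and MTF1, and 0 lower. Autophagy genes were 7 higher and 10 lower of 33. Leaving out ELF-153 replicate 3 or UCSD-AML1 replicate 2 gave 6 lower autophagy genes, leaving out UCSD-AML1 replicate 1 gave 5, and the covariate gave 3.

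Large differences were also found in genes outside the lists. AHR, a ligand-activated transcription factor, had 277, 576 and 617 scaled reads in the ELF-153 libraries, against 19.5, 4.79 and 10.7 in the UCSD-AML1 libraries (log2 difference 5.37 ± 0.48 (SE), limma adjusted p = 1.58e-06), and AHRR, the repressor it induces, had 2705, 3732 and 3634 scaled reads in the ELF-153 libraries, against 16.8, 21.1 and 32.2 in the UCSD-AML1 libraries (log2 difference 7.14 ± 0.22 (SE), limma adjusted p = 7.4e-11). ANPEP, the myeloid aminopeptidase CD13, had 1922, 2971 and 2871 scaled reads in the ELF-153 libraries, against 44.2, 22.1 and 47.7 in the UCSD-AML1 libraries (log2 difference 6.10 ± 0.26 (SE), limma adjusted p = 1.1e-09). ATP8A2, a phospholipid flippase, averaged 2588 ± 419 scaled reads in ELF-153, 4010-fold (95% counting interval 1110 to 33100) above UCSD-AML1, and NKX2-3, a homeobox factor, averaged 683 ± 192, at least 652-fold higher. BTN1A1, a butyrophilin, had 18.1, 21.3 and 11.7 scaled reads in the ELF-153 libraries, against 10447, 10237 and 9185 in the UCSD-AML1 libraries (log2 difference -9.14 ± 0.27 (SE), limma adjusted p = 6.75e-11). SUCNR1, the succinate receptor, averaged 18 ± 16.5 in ELF-153 against 4485 ± 2020 in UCSD-AML1 scaled reads, DOCK1, an activator of RAC, 12.3 ± 6.13 in ELF-153 against 2872 ± 116 in UCSD-AML1, and CD48, an adhesion ligand of lymphocytes, 20.4 ± 9.78 in ELF-153 against 3354 ± 285 in UCSD-AML1. BASP1, a membrane-bound signalling protein, had no read in ELF-153 and averaged 2693 ± 84.2 in UCSD-AML1, at least 2830-fold lower. All of these passed the test, and the libraries of AHR, AHRR, ANPEP, ATP8A2, NKX2-3, BTN1A1, SUCNR1, DOCK1, CD48 and BASP1 did not overlap between lines.

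The same line difference was measured in other libraries at 96 h. There 4003 of 17609 genes (22.7%) were higher in ELF-153 and 6192 (35.2%) lower, 57.9% in all, by limma on the deposited scaling. With edgeR and TMM factors the balance turned, with 5273 higher and 4869 lower, and the median log2 difference over all genes was 0.05 in place of -0.23. Of 4851 genes higher at 144 h and tested at both harvests, 3377 (69.6%) were also higher at 96 h, which is 86.8% of those higher at 96 h. Of 3931 lower at 144 h, 3607 (91.8%) were lower at 96 h, 61% of those lower at 96 h. By edgeR these shares were 84.7 and 76.2% for higher genes and 85.5 and 72.6% for lower ones. By limma 13 and 4 genes were called in opposite directions at the 2 harvests. The interferon list had 47 of 50 lower, the megakaryocyte list 30 of 42, the p53 list 21 of 32 and the NF-kB list 15 of 26. Cholesterol genes were 11 higher and 5 lower at 96 h, DNA replication genes 13 and 7, and glycolysis genes 4 and 8. By edgeR these were 16 and 4, 17 and 5, and 8 and 5, and the lower counts of the first 4 lists were 44, 29, 21 and 14. When the difference at 144 h was tested against that at 96 h, 27 of 16783 genes (0.161%) passed, 19 with a higher value at 144 h (0.113%) and 8 with a lower one (0.0477%), and edgeR passed 9. The replication and glycolysis lists held no such gene; the median shift between harvests over all genes was 0.32.

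The genes whose line difference changed included 4 of the 33 ATF4 and amino acid stress genes. CHAC1, which breaks down glutathione, had a log2 difference of -1.04 at 144 h and 2.64 at 96 h, and at 144 h it had 82.8, 111 and 96.1 scaled reads in the ELF-153 libraries, against 189, 224 and 186 in the UCSD-AML1 libraries. The change was -3.68 ± 0.38 (SE, limma adjusted p = 4.12e-05). SLC7A11, TRIB3 and WARS, a tryptophanyl-tRNA synthetase, changed in the same sense, by -2.51, -1.62 and -1.2; for TRIB3 the log2 difference at 96 h was -0.02. ULBP1, a ligand of the NKG2D receptor of natural killer cells, was higher in ELF-153 at both harvests, with log2 differences of 0.96 at 144 h and 4.97 at 96 h; the 144 h call was lost without ELF-153 replicate 1 or UCSD-AML1 replicate 3 (limma adjusted p = 0.0504 and 0.0608). CCND1, a D cyclin, changed the other way, by 1.25. With replicate 1, 2 or 3 of both lines left out at both harvests, 7, 3 and 1 genes passed.

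**Figure D4:**
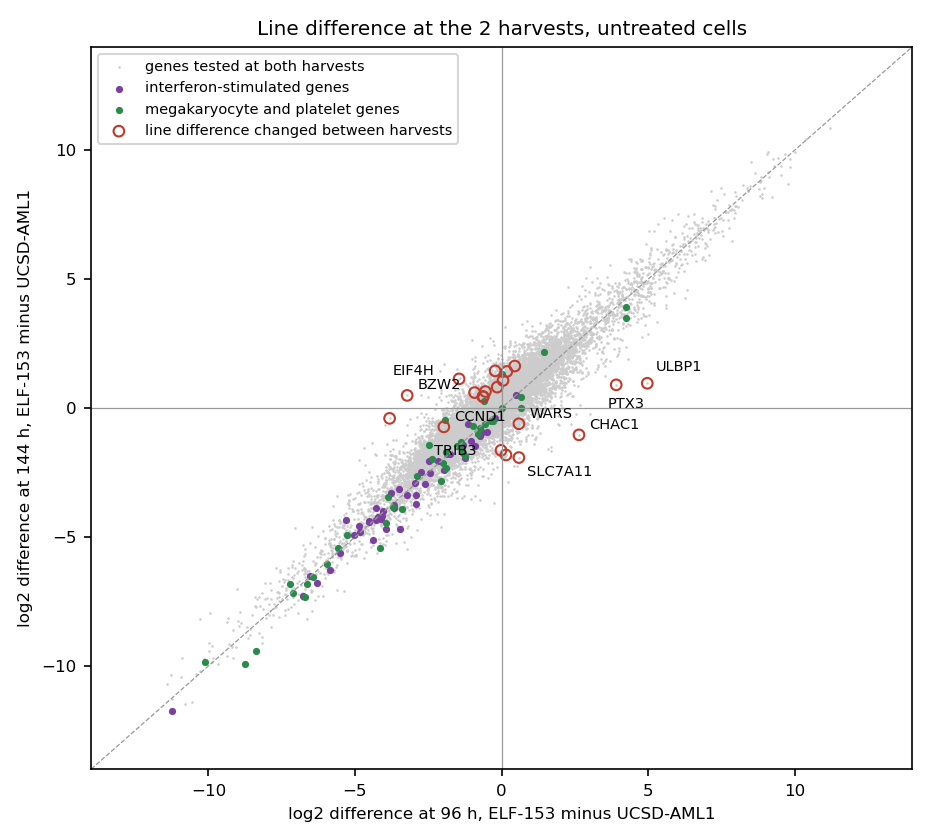
Log2 difference (ELF-153 minus UCSD-AML1) at 96 h (x) and 144 h (y) of each gene tested at both harvests in untreated cells; purple and green mark the interferon and megakaryocyte lists, open red circles protein-coding genes whose difference changed between harvests, and the dashed line equality. Most members of both lists lie below 0 at both harvests, and CHAC1 lies at 2.64 and -1.04.

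Line differences were also arranged by chromosome. Among protein-coding genes 31.3% were higher and 22.4% lower, 53.7% in all, with a median log2 difference of 0.15. On chromosome 5, 77 of 515 were higher and 253 (49.1%) lower, with a median of -0.84. On chromosome 7, 254 of 493 (51.5%) were higher and 57 lower, with a median of 0.86. Chromosomes 16 and 19 stood at 0.76 and 0.79. With the GC trend removed the medians of chromosomes 5, 7, 16 and 19 were -0.65, 0.94, 0.59 and 0.58, against 0.21 over all protein-coding genes. At 96 h they were -1.24, 0.56, 0.54 and 0.53, against -0.18. In blocks of about 25 neighbouring genes, chromosome 5 was positive in its first 2 blocks, PLEKHG4B to BRIX1, at 0.78 and 0.27. From DNAJC21 to its end it was negative in 18 of 19 blocks; the exception ran from HARS to PCDHGA11. Chromosome 7 was positive in each of its 15 blocks from INHBA to WDR60, and mixed before. Chromosome 17 changed sign within the chromosome, with -1.06 from NLRP1 to PLSCR3, 1.24 from GID4 to MTRNR2L1 and 0.96 from NDUFAF8 to CENPX. DNA copy number was not measured here, so its part in these differences was not tested. Members of the lists fall in these stretches, among them HSPA4 on chromosome 5, and CDK6 and MCM7 on chromosome 7. GINS2 begins a block of chromosome 16 with a median of 1.35. These are examples, and how many members of each list lie in such stretches was not counted.

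**Figure D5:**
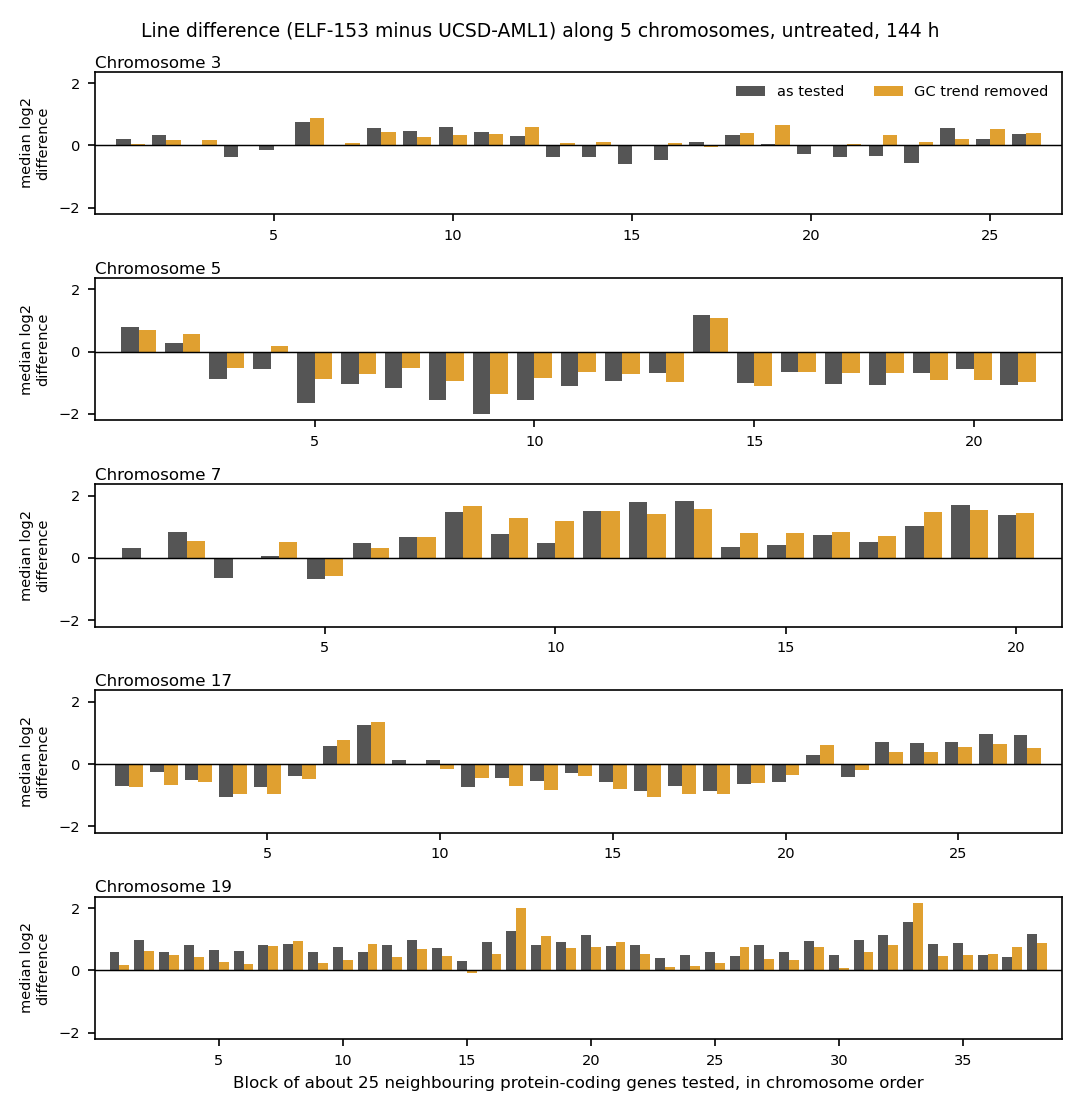
Median log2 difference (ELF-153 minus UCSD-AML1) in blocks of about 25 neighbouring protein-coding genes along 5 chromosomes, untreated cells at 144 h; grey bars as tested, orange bars with each library's GC trend removed. Chromosome 5 is below 0 in most blocks, chromosome 7 above 0 in its later blocks, and chromosome 17 changes sign along its length.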

How the data were processed

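Deposited tables of 144 h and 96 h held 12 libraries each, as signal: reads per transcript divided by the library's size factor, from the values. Per the submitters' processing notes the authors used hg19, FastQC, TopHat2, STAR, HTSeq and DESeq2; roles, versions and how multiply mapped reads were counted are not given in the sources used here. Dividing by each library's step gave whole reads for 100% of values, within 0.01. Of 204940 transcripts, 181859 (88.7%; 97.8% of the signal) matched GENCODE 29 and were summed to 52994 genes, and 23081 were left out. Genes at 10 or more in 3 or more of all 12 libraries were tested, so treated libraries could bring in genes low in both untreated groups. The test was limma 3.58.1 (R 4.3.3) on log2(value + 1), with group means over the 12 libraries and Benjamini-Hochberg adjusted p below 0.05. Treated libraries thus entered through this filter and the spread estimate, and not through the contrast. Adding 1 understates the change of low genes. edgeR 4.0.16 and DESeq2 1.42.0 on these reads were alternatives, edgeR calling 4706 genes higher and 3986 lower; the method was tested on simulated data. The change between harvests was a limma contrast over 24 libraries; levels were not compared between tables. A table of repeat families at 96 h was not used here. Some list members are not reported here. Named genes were fixed anchors, the largest differences, and the called members of smallest adjusted p of each list, some chosen after their values were seen. The groups, 44 gene lists and tests were chosen with earlier results of these data known. Intervals and floors of 3 reads per group cover counting error only.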

Additional observations from a re-analysis of the deposited data

Results flagged for a closer look

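The difference between the lines changed between harvests, by the limma contrast of 144 h minus 96 h, for 27 of 16783 genes. Values for 19 protein-coding genes are that change on the log2 scale, and their causes were not tested. Amino acid stress and cystine genes changed downwards: CHAC1 by -3.68, SLC7A11 by -2.51, TRIB3 by -1.62 and WARS by -1.2. ULBP1, a natural killer cell ligand, changed by -4.01, PTX3, a soluble pattern receptor, by -3.01, and S100P, a calcium-binding protein, by -1.97. BZW2, a translation regulator, changed by 3.71 and EIF4H, a translation initiation factor, by 2.58. BTBD19 changed by 3.42, PUS1, a pseudouridine synthase, by 1.66, and MED17, a Mediator subunit, by 1.52. CCND1 changed by 1.25, SMIM7 by 1.24 and TMEM33 by 1.19. LTO1 changed by 1.08, RNPS1, a splicing activator, by 1.07, BRI3BP by 1.02 and FARP2 by 0.96. These changes are to be read beside a median of 0.32 over all genes tested at both harvests. Groups of 3 libraries are too small for a test of single outlying libraries.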

How the results depend on the processing

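Genes higher in ELF-153 at 144 h numbered 4132 to 5122 when each library was left out in turn and genes lower 3012 to 4651. The counts at 96 h ranged from 2691 to 3559 higher and 4719 to 5756 lower without each replicate number, and the difference in mitochondrial ribosomal RNA share from -32.1 to -21.3 points. Over protein-coding transcripts alone 2702 genes were higher and 2264 lower, of 9516 tested in place of 17180. With the ribosomal RNA share as a covariate 2238 genes were lower; the cause was not tested. Other scalings, tests, pseudocounts, filters and the fit to the 6 untreated libraries kept both counts within 1.5 times. The count of genes whose line difference changed between harvests was 9 by edgeR and 1 to 7 without each replicate number.

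Replicate numbers did not pair the libraries: deviations of same-numbered libraries correlated at 0.28, -0.2 and 0.26. A replicate block gave 5068 genes higher and 4312 lower. Alternatives chosen after seeing the data gave 5260 and 5116 without ELF-153 replicate 1 and UCSD-AML1 replicate 3, 4974 and 4091 with a term for the library sets, and 5205 and 3796 with the GC trend removed. Of the genes named, these changed sign. With the ribosomal RNA covariate KIT was 0.09 and TOP2A 0.06. Over protein-coding transcripts IRF9 was 0.8. None of the 3 was called there. With replicate libraries described as technical, and 15.1 to 25.54 M reads a library, genes under 10 scaled reads in all but 2 libraries or fewer were not tested.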

Other observations

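Genes near 0 in 1 line included several outside the pathways above, chosen as the highest means among genes under 1 scaled read in the other line. C1orf21 averaged 1248 ± 298 scaled reads in ELF-153 and was 1960-fold (95% counting interval 542 to 16200) higher, and the zinc finger genes ZNF486 and ZNF93 averaged 914 ± 58.7 and 851 ± 291 (SD, n = 3). Both zinc finger genes lie on chromosome 19 and were at least 926-fold and at least 907-fold higher. AGMAT, an agmatinase-like mitochondrial enzyme, averaged 653 ± 143 in ELF-153 and was 1890-fold (95% counting interval 339 to 74800) higher. In the other direction LSAMP, a neural cell adhesion protein, averaged 2080 ± 615 in UCSD-AML1 and was 6750-fold (95% counting interval 1210 to 267000) lower in ELF-153. CLEC9A, a lectin of cross-presenting dendritic cells, averaged 1857 ± 597 in UCSD-AML1 and was 3020-fold (95% counting interval 835 to 24900) lower, and PREX2, an activator of RAC, averaged 1277 ± 133 and was 2040-fold (95% counting interval 564 to 16800) lower. GPC6, a heparan sulphate proteoglycan of the cell surface, averaged 1038 ± 146 and was 3320-fold (95% counting interval 596 to 131000) lower. All of these passed the limma test.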
